A study of Mus musculus with 16 samples.

Results

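The genes described here encode the nuclear-encoded subunits of the mitochondrial respiratory chain and ATP synthase, with some of their assembly factors. They were chosen by symbol, as the genes whose platform symbol starts with Nduf, Uqcr or Atp5, with Sdh followed by a letter from a to d, or with Cox followed by a digit from 4 to 8. Of 89 such genes on the platform, 84 had a probe above the array median on at least 2 of the 16 arrays. They make up 0.79% of the 10607 genes tested, and each is represented by its brightest probe. By symbol, 35 belong to complex I, 3 to complex II, 7 to complex III, 14 to complex IV and 16 to complex V, and 9 are assembly factors of complexes I and II. The 5 genes below the filter, Cox4i2, Cox7b2, Cox8b, Cox8c and Uqcrq, were above the median on 0 arrays. Of the members, 82 were above the median on all 16 arrays, while Cox6a2 reached it on 4 (3 BRAF NEG and 1 BRAF R) and Cox6b2 on 3 (2 BRAF RG and 1 BRAF G). These 2 genes became members only through the groups where they are high, so their differences involving those groups are given as descriptions, without a p-value, although they count among the members that passed. The symbol Ndufs5-ps names a pseudogene, so its signal cannot be told apart from that of a near-identical parent gene.

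The samples were duodenal crypt cells of mice on a mixed B6/129S6 background, aged 8 to 12 weeks. All mice drank doxycycline at 4 mg/ml in 1% sucrose for 24 h and carried an EGFP reporter of Lgr5, a gene of intestinal stem cells. The BRAF line carried an inducible TdTomato-BRAF(V600K) transgene, an activated kinase of the MAPK pathway, and the control line (luc) carried TdTomato-luciferase. Cells were sorted by green (Lgr5-EGFP) and red (TdTomato) fluorescence into 4 gates: RG had high signal in both colours and NEG in neither, G was bright in green alone, and R in red alone. Samples of a line with the same replicate number were taken as 1 mouse. On that reading the 3 BRAF mice gave all 4 gates and the 2 luc mice gave G and RG, so each array is 1 gate of 1 mouse. The promoter that drives the transgene is not given in the sources used here. Line and transgene cannot be told apart.

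The respiratory chain passes electrons from NADH (complex I) and succinate (complex II) through ubiquinone to complex III, then through cytochrome c to complex IV, which reduces oxygen. The protons pumped on the way drive ATP synthase, also called complex V. Most subunits are encoded in the nucleus, and Lgr5-positive stem cells of the mouse small intestine are known for higher mitochondrial activity than the neighbouring Paneth cells.

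Values are log2 intensities, and a difference is given with its standard error (SE) from 1 limma fit over all 16 arrays. A gene is said to have risen or fallen where its Benjamini-Hochberg adjusted p over the 10607 genes was under 0.05. Lgr5 itself was at 8.81 ± 0.37 (SD, n = 2) in luc G and 7.13 ± 0.02 (SD, n = 2) in luc RG. In the BRAF line it was at 8.52 ± 0.65 in G, 7.47 ± 0.06 in RG, 7.82 ± 0.60 in NEG and 6.95 ± 0.40 in R (SD, n = 3 each). The mean was lower in RG than in G in both lines, although both gates are green high, and in the BRAF line NEG lay between them. Within groups the mean correlation of an array with the others ran from 0.94 to 0.991, and was lowest in BRAF R and luc RG. Summed over 15 leukocyte markers, NEG arrays reached 20011 to 28397 against 1546 to 2492 on all other arrays. In bulk arrays, fewer cells of a type and less RNA per cell cannot be told apart.

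The promoters of the members were read for 3 sequence motifs, which the rule did not use. RefSeq promoter windows of 300 bases (GRCm38.p6, 250 before and 50 after the start) were found for 72 members. Some genes have more than 1 window, and a match in any of them counted for the gene. The NRF1 motif (the letters GCGCA, then any base, then GCGC), read on both strands, occurred in 18 of these members (25%). It occurred in 10.8% of 8630 tested genes with a window and 5.19% of 27025 genes in all. The ETS-type motif CCGGAAG occurred in 20 members (27.8%), against 19.2% and 9.93%. The YY1-type motif AAGATGGCG occurred in 7 (9.72%), against 3.36% and 1.64%. At least 1 of the 3 motifs was present for 38 of the 72 members (52.8%), against 29.6% of tested genes. A match is a description of the letters, not a site of binding. The upstream 250 bases of 4 members whose levels differed between gates or lines are shown, each 5′ to 3′ on the gene's own strand, with a motif match in capitals.
Cox7a1 (chr7:30183921-30184170, plus strand): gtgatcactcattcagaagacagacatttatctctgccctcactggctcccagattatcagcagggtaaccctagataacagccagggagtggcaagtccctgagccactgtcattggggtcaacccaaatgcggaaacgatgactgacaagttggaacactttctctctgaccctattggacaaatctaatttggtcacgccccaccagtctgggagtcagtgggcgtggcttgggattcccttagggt
Ndufab1 (chr7:122101849-122102098, minus strand): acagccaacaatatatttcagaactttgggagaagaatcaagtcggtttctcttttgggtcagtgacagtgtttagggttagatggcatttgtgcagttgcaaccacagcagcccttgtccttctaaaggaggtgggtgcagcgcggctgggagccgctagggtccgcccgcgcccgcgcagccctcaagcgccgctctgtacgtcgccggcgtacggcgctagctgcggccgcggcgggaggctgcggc
Ndufaf4 (chr4:24897833-24898082, plus strand, NRF1 motif in capitals): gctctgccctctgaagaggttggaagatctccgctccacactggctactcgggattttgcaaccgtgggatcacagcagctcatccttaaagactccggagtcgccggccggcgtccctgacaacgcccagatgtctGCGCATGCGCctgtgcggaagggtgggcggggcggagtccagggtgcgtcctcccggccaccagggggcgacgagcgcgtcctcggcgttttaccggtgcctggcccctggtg
Ndufaf1 (chr2:119662835-119663084, minus strand, ETS-type motif in capitals): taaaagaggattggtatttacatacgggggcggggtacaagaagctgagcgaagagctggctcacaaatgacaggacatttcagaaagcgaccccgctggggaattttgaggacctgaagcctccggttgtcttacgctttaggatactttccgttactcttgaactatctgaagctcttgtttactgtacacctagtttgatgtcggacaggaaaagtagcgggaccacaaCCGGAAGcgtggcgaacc
The first 2 hold none of the 3 motifs in these bases. The windows of Ndufaf7, Ndufa1 and Cox6b2, which also passed in at least 1 comparison and are not shown, hold none either.

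As a set the members varied little between groups. The range of the 6 group means had a median of 0.39 over the members and 0.66 over all genes tested. The members were also bright and less noisy. Their median level was at the 93.0 percentile of genes tested, and their median SE in BRAF RG against G was 0.172, against 0.203 over all genes. The part of brightness and noise in the smaller range was not tested. It was under 0.5 for 57 members (67.9%, against 33.1% of all genes) and over 1 for 4 (4.76%, against 23.2%), namely Cox7a1 (3.30), Ndufab1 (1.18), Ndufaf4 (1.12) and Cox6a2 (1.07). The median SD within a group was 0.19 over the members. In the 9 comparisons made, 8 members passed the test at least once and 76 did not. The 8 include Cox6a2 and Cox6b2, admitted through groups where they are high. The share of all genes that passed at least once is not given here, so the 8 cannot be set against it. In single comparisons 0.217% (BRAF G against luc G) to 16.6% (BRAF RG against luc RG) of all genes passed. The median member deviation of an array from each gene's mean ran from -0.21 in BRAF R of mouse 2 to 0.13 in luc G of mouse 2. The R arrays did not move together, since mouse 3 lay at 0.09.

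**Figure D1:**
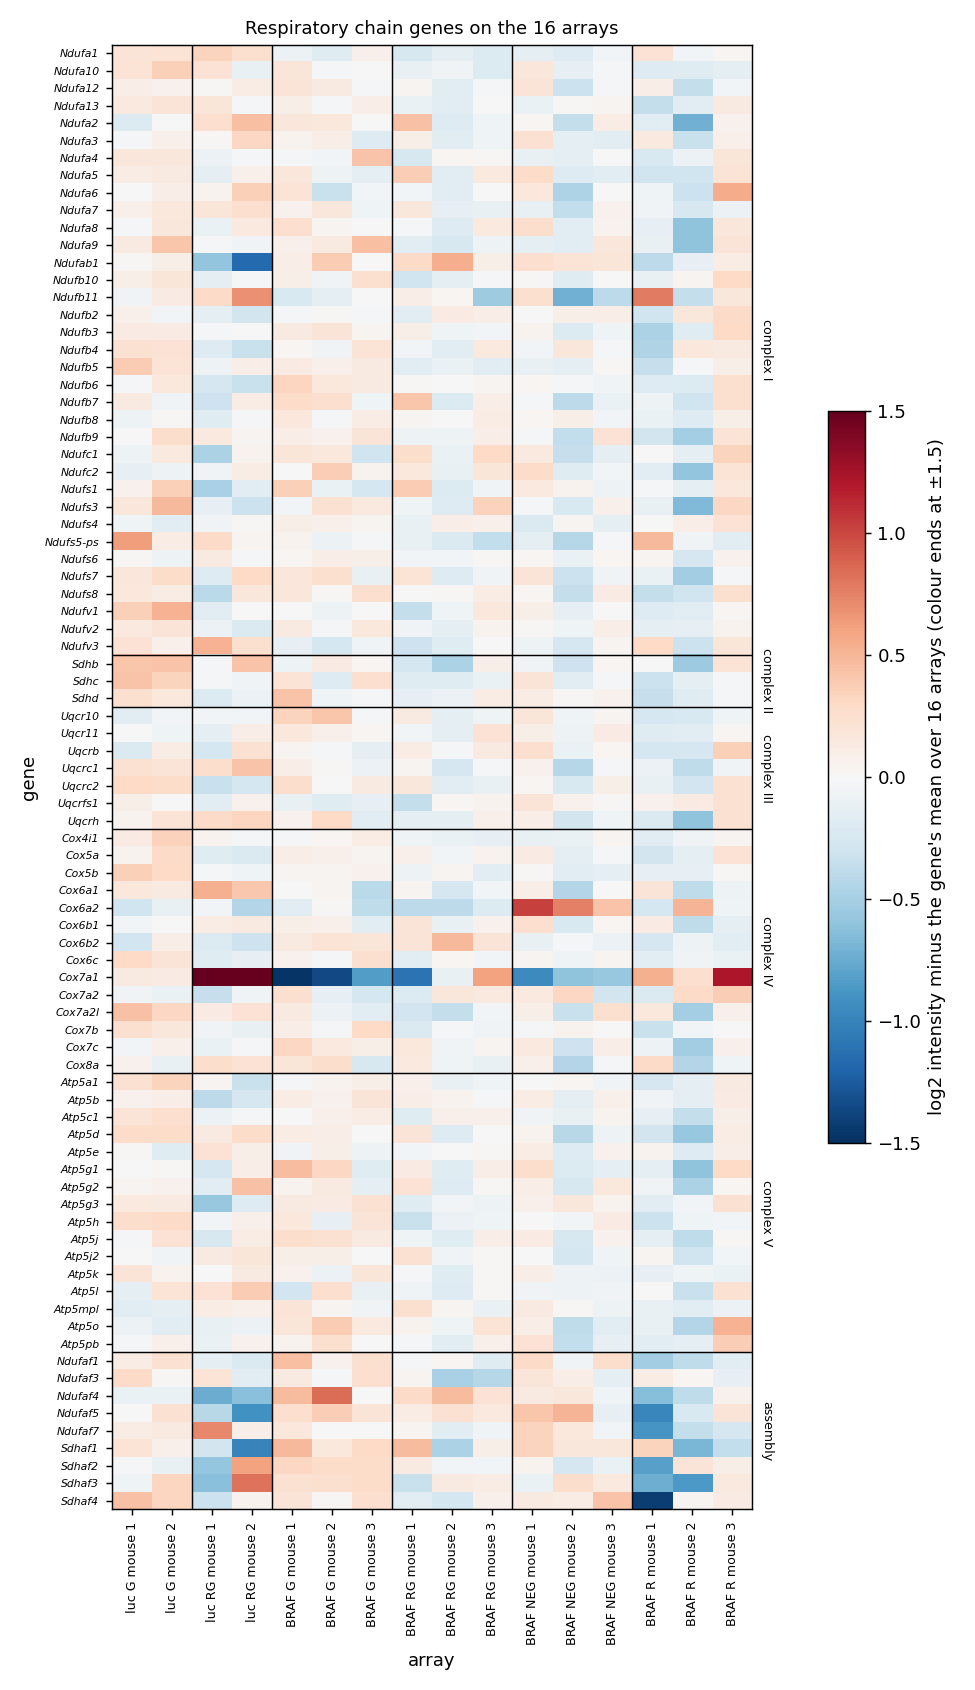
Heat map of the 84 members (rows, by complex) on the 16 arrays (columns, by group and mouse); colour is log2 intensity minus the gene's mean over all arrays, ending at 1.5 either side. Most rows are pale, the Cox7a1 row spans the scale, and the assembly factor rows are darkest blue in BRAF R of mouse 1.

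Setting the RG gate against the G gate of BRAF mice asks how red-high cells differ from red-low cells of the green gate. No member passed the limma test (0 of 84), against 0.801% of all genes, and 2 members had an unadjusted p under 0.05, against 8.95%. The member estimates were small and mostly negative: 69 of 84 (82.1%) lay below 0, against 53.9% of all genes, with a median of -0.11, against -0.02. For 83 members (98.8%) the 95% confidence interval lay within 1 log2 unit of no difference, against 88.6% of all genes. The lean was similar in NEG against G, where neither gate was red-high. There 67 of 84 members (79.8%) lay below 0, against 56.9% of all genes, with a median of -0.093, against -0.036. Both comparisons share the G arrays. Atp5b, the catalytic beta subunit of ATP synthase, was at 13.10, 13.05 and 13.19 in G of mice 1 to 3 and at 13.10, 13.04 and 12.98 in RG. The groups overlapped, and the difference was -0.08 ± 0.13 (SE). Ndufb8, an accessory subunit of complex I, was at 13.12, 12.94 and 13.07 in G and at 12.97 to 13.07 in RG, a difference of -0.03 ± 0.13. Cox4i1 was at 12.00 ± 0.06 in BRAF G, 11.86 ± 0.03 in RG, 11.90 ± 0.09 in NEG and 11.90 ± 0.10 in R (SD, n = 3 each). Cox4i1, a ubiquitous complex IV subunit, differed by -0.14 ± 0.13 between RG and G. Enteroendocrine marker sums were 6336 to 10795 in G and 15565 to 17585 in RG, and their part in these values was not tested.

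In the luc line, whose red protein is TdTomato-luciferase, 2 members passed (2.38%), against 11.9% of all genes. Cox7a1 rose, as did 5.11% of all genes, and Ndufab1 fell, as did 6.78%. Estimates lay below 0 for 57 members (67.9%), against 51.1% of all genes, with a median of -0.13, against -0.01. In all 15 members had an unadjusted p under 0.05 (17.9%), against 28.2% of all genes. Among them Atp5g3, a membrane subunit of ATP synthase, differed by -0.52 ± 0.18 (limma, adjusted p = 0.0708) and Uqcrc2, a core subunit of complex III, by -0.58 ± 0.20 (adjusted p = 0.072). With the mouse as a fixed block Uqcrc2 passed (adjusted p = 0.0397), and with the mouse as a random block Atp5g3 did (adjusted p = 0.04). Markers of other cell types also differed between these gates: summed enteroendocrine markers (10 genes) were 7863 to 9675 in luc G and 39247 to 40007 in luc RG, and goblet markers (6 genes) 9278 to 9844 and 49764 to 53134. Cycling markers (12 genes) ran from 15865 to 17087 in luc G and from 7670 to 9165 in luc RG. Their part in the result was not tested.

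The difference between the lines' RG-G differences passed for 0 members, against 0.481% of all genes, and 1 member had an unadjusted p under 0.05, against 13.2%. The median was -0.002. The member intervals lay within 1 log2 unit for 69 of 84 members (82.1%), against 46.9% of all genes.

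**Figure D2:**
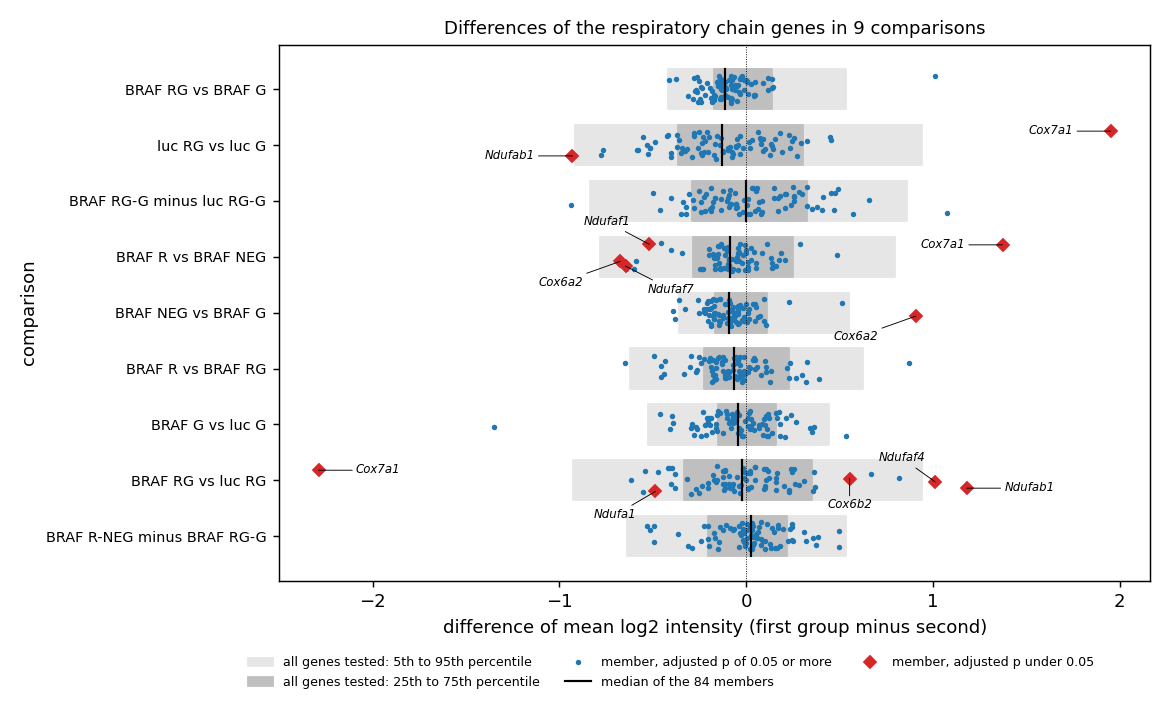
Differences of the 84 members in the 9 comparisons (x axis, difference of mean log2 intensity, first group minus second; 1 point a member, red diamonds for adjusted p under 0.05), over bands of the 5th to 95th and 25th to 75th percentiles of all genes tested. In no comparison do more than 3 members lie outside the wider band, and those farthest out are Cox7a1, Ndufab1, Ndufaf4 and Cox6a2.

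Cox7a1, the heart and muscle isoform of a small complex IV subunit, was the member that varied most. Its log2 intensity was 9.10 and 9.09 in luc G and 11.11 and 10.98 in luc RG. In BRAF G it was 7.49, 7.61 and 8.13 in mice 1 to 3, and in BRAF RG 7.86, 8.85 and 9.57. It was 8.01, 8.37 and 8.40 in NEG and 9.50, 9.22 and 10.18 in R. Both luc gates lay above BRAF G, and luc RG lay above every BRAF array. It was 3.87-fold higher in luc RG than in luc G (1.95 ± 0.41, SE; adjusted p = 0.00698, limma; higher in 2 of 2 mice). Without luc mouse 1 the adjusted p was 0.118, and without luc mouse 2 it was 0.0871. In the BRAF line RG exceeded G by 1.01 ± 0.34 (SE; 95% confidence interval 0.29 to 1.73) in 3 of 3 mice, with groups that overlap, and did not pass (adjusted p = 0.277, limma). With the mouse as a fixed block the adjusted p was 0.0476. The lines' differences differed by -0.94 ± 0.53 (interval -2.08 to 0.20; adjusted p = 0.475). BRAF RG lay 4.89-fold below luc RG (-2.29 ± 0.38; adjusted p = 0.00162), and BRAF G lay below luc G by an estimate of -1.35 ± 0.38 that did not pass (adjusted p = 0.267). It passed with estimated array weights (adjusted p = 0.00144) and when only the groups compared were fitted (0.0055). The ubiquitous isoform Cox7a2 showed no such spread, with means of 9.78 in luc G, 9.65 in luc RG, 9.81 in BRAF G and 9.89 in BRAF RG.

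In the green-low cells, R against NEG, 4 members passed (4.76%), against 12.6% of all genes. Of these 1 was higher, beside 5.26% of all genes, and 3 were lower, beside 7.3%. An unadjusted p under 0.05 was found for 6 members, against 26.7% of all genes. Cox7a1 was 2.59-fold higher in R (1.37 ± 0.34; adjusted p = 0.015; higher in 3 of 3 mice, no overlap). Without BRAF mouse 2 it was 1.63 with an adjusted p of 0.0661. Ndufaf7 and Ndufaf1 fell. The remaining lower member, Cox6a2, was admitted mainly through the NEG arrays. Its call is counted above but not read as a result, and the gene is described with the NEG gate. The median over the members was -0.09, against -0.01 over all genes. The NEG gate held the high leukocyte sum given above, with 0 of the 15 markers dim on every array there and 8 dim on every R array; its part in the result was not tested. Enteroendocrine sums were also higher in R (24618 to 54981) than in NEG (13224 to 20021), and cycling sums lower (7298 to 9367 against 13857 to 15624).

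The assembly factors, which help build complexes I and II without staying in them, lay below 0 in R against NEG in 9 of 9 cases, against 75% of the members and 50.8% of all genes. Their median was -0.52, against -0.09 and -0.01. They were dimmer and noisier than the members at large. Their median level was at the 62.6 percentile of genes tested, and their median SE in this comparison was 0.25, against 0.172 over the members. Ndufaf7, a complex I assembly factor, was at 8.35, 8.18 and 7.98 in NEG and at 7.14, 7.67 and 7.77 in R. It fell by 0.65 log2 units, with an SE of 0.19 and a limma adjusted p of 0.0387, with R below NEG in every mouse. Ndufaf1, an early complex I assembly factor, was at 9.31, 8.97 and 9.29 in NEG and at 8.50, 8.65 and 8.87 in R, without overlap, and fell by 0.52 (SE 0.16; adjusted p = 0.0416). Neither call held without any 1 of the BRAF mice (adjusted p from 0.068 to 0.366 for Ndufaf7 and from 0.086 to 0.29 for Ndufaf1), and that of Ndufaf1 was also lost without either luc mouse (0.0582). The R array of mouse 1 had the lowest assembly factor level of all arrays (median deviation -0.73, against -0.35 and 0.06 in the other R arrays) and the lowest estimated array weight (0.276). Its mean correlation with its group, 0.94, was close to that of the other R arrays (0.945 and 0.955). Without that array the assembly median was -0.28, 8 of 9 lay below 0 and 0 passed; Ndufaf7 and Ndufaf1 then had adjusted p of 0.137 and 0.118. This setting was chosen after seeing the data. Sdhaf4, an assembly factor of complex II, was at 8.59, 8.57 and 8.89 in NEG and at 7.04, 8.50 and 8.58 in R. The low value of mouse 1 stood far below the other 2, and the difference of -0.64 ± 0.30 did not pass (adjusted p = 0.185). Without that array it was -0.14. Ndufaf5, a complex I assembly factor, differed by -0.60 ± 0.25 and did not pass (adjusted p = 0.132). Its value rested on single mice, being -0.21 without BRAF mouse 1 and -1.07 without BRAF mouse 3, where it passed (adjusted p = 0.0386). Sdhaf3 differed by -0.59 ± 0.31, and by -0.32 without BRAF mouse 2. The others differed without passing, Sdhaf1 by -0.46 ± 0.27, Ndufaf4 by -0.40 ± 0.21, Sdhaf2 by -0.08 ± 0.27 and Ndufaf3 by -0.04 ± 0.18.

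In BRAF RG against G the assembly factors were below 0 in 9 of 9 cases (median -0.27, 0 passed), where 82.1% of all members and 53.9% of all genes were. In the luc line they were below 0 in 7 of 9 (77.8%, median -0.35, 0 passed), where 67.9% of all members and 51.1% of all genes were. With the mouse as a fixed block Sdhaf1 passed in the luc line (-0.78; adjusted p = 0.0364). Ndufaf4 was at 9.59, 9.95 and 9.11 in BRAF G, and 9.40, 9.59 and 9.33 in BRAF RG. It was at 9.02 and 9.01 in luc G, and 8.37 and 8.49 in luc RG. BRAF RG exceeded luc RG by 1.01 ± 0.23 (SE, adjusted p = 0.00953, limma), and without luc mouse 1 by 0.954. With estimated array weights that call was lost (limma, adjusted p = 0.0626). BRAF G also exceeded luc G, by 0.537, which did not pass. With estimated array weights that difference was 0.588 and passed (limma, adjusted p = 0.0236).

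In complex I, Ndufab1, the mitochondrial acyl carrier protein that is also a complex I subunit, was at 8.26 and 8.34 in luc G and 7.66 and 7.08 in luc RG. In the BRAF line the G arrays held 8.35, 8.63 and 8.24, and the RG arrays 8.53, 8.78 and 8.34. NEG arrays held 8.50, 8.45 and 8.42, and R arrays 7.85, 8.13 and 8.36. The luc RG arrays lay below all other arrays. It fell by 0.93 (SE 0.23) in luc RG against luc G (adjusted p = 0.0158, limma), which did not pass without luc mouse 2 (adjusted p = 0.3). BRAF RG exceeded luc RG by 1.18 ± 0.21 (adjusted p = 0.00233). Fitted on only the groups compared, these had adjusted p of 0.0982 and 0.0547. The lines' RG-G differences differed by 1.08 ± 0.29 and did not pass (adjusted p = 0.108).

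BRAF RG against luc RG, the red-high green-high cells of each line, had 5 members passing (5.95%), against 16.6% of all genes. Of these 3 were higher, beside 9.55% of all genes, and 2 lower, beside 7.05%. An unadjusted p under 0.05 was found for 12 members, against 31.8%. Ndufab1, Ndufaf4 and Cox6b2 were higher in BRAF RG and Cox7a1 and Ndufa1 lower. The Cox6b2 call is counted here but not read as a result, since the gene was admitted mainly through the BRAF RG arrays. Ndufa1, a small accessory subunit, was at 11.20, 11.29 and 11.24 in BRAF RG and 11.78 and 11.68 in luc RG, and the log2 difference was -0.49 ± 0.15 (SE; limma, adjusted p = 0.0363). The Ndufa1 call did not hold when any 1 mouse was left out (adjusted p from 0.0852 to 0.175). Cox6b2, known as the testis isoform of a complex IV subunit, was above the median on 2 of 3 BRAF RG arrays and 0 of 2 luc RG arrays. It was at least 1.07-fold higher in BRAF RG (0.55 ± 0.16, SE), which describes a gene admitted through that group. The median over the members was -0.02, against -0.01 over all genes. Enteroendocrine and goblet sums were lower in BRAF RG (15565 to 17585 and 15680 to 27321) than in luc RG. Cycling sums were higher in BRAF RG (13528 to 17144) than in luc RG (7670 to 9165). The part of these markers in the result was not tested.

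BRAF G against luc G passed for 0 members, against 0.217% of all genes, and 3 had an unadjusted p under 0.05, against 7.8%. In NEG against G the only member that passed was Cox6a2, which was higher, against 2.21% of all genes, with 2.19% higher. It became a member through the NEG arrays, so its call is not read as a result. No other member had an unadjusted p under 0.05, against 7.78%. Cox6a2, the heart and muscle isoform of a complex IV subunit, was at 7.59, 7.31 and 6.99 in NEG and 6.40, 6.58 and 6.18 in G. It was dim in G and at least 1.31-fold higher in NEG (0.91 ± 0.21, SE), without overlap. In R it was above the median on 1 of 3 arrays, the R values overlapped those of NEG, and the difference was -0.67 ± 0.21. Both differences describe a gene admitted through the NEG arrays. R against RG passed for 0 members, against 2.21% of all genes, with 5 at an unadjusted p under 0.05, against 18.9%. The difference between the 2 red-minus-nonred contrasts of the BRAF line passed for 0, against 1.27%, and 0 had an unadjusted p under 0.05, against 6.51%. These comparisons share arrays.

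**Figure D3:**
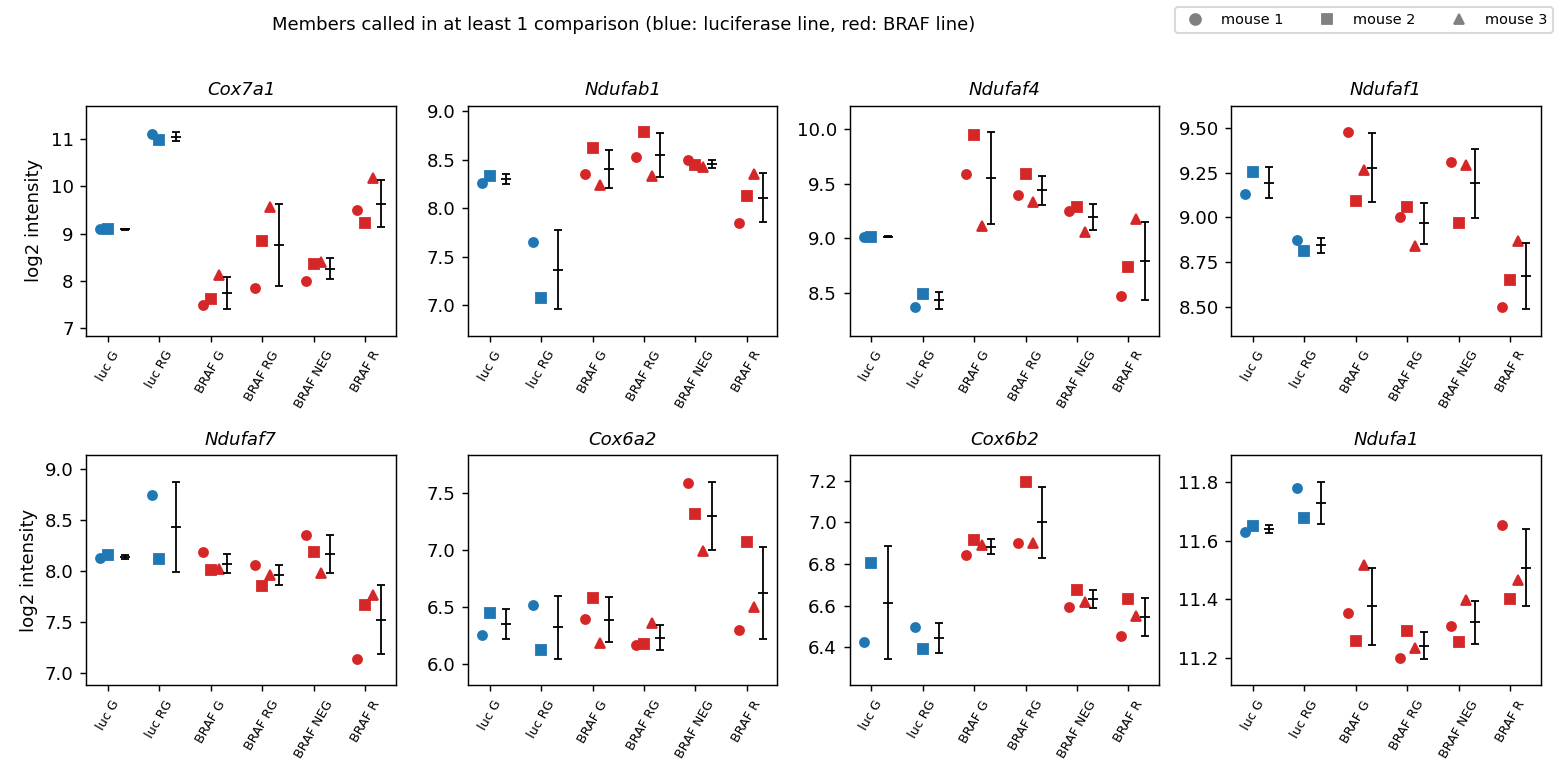
Log2 intensity on each array (points, shape for the mouse) of the 8 members called at least once, by group, with mean and SD (bars), blue for the luc line and red for the BRAF line. Cox7a1 is highest in luc RG, Ndufab1 lowest there, and Ndufaf1 and Ndufaf7 are lowest in BRAF R.

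Among the remaining subunits, the 3 measured complex II genes lay below 0 in BRAF RG against G, at -0.24 ± 0.20 for Sdhb, -0.24 ± 0.16 for Sdhc and -0.14 for Sdhd, and none passed. Of all members 82.1% lay below 0 there. The complex II proteins carry electrons from succinate to ubiquinone. For Sdhc a second, dimmer probe differed by 0.12 in R against NEG where the tested probe gave -0.17, and the dimmest Sdhb probe differed by 0.04 in BRAF RG against G. The complex V paralogs Atp5g1, Atp5g2 and Atp5g3, which encode one mature protein, differed by -0.18, -0.00 and -0.26 in that comparison. In R against NEG they differed by -0.12, -0.17 and -0.09, and none passed. In complex I the core subunits Ndufs1 and Ndufv1 differed by 0.04 ± 0.20 and -0.06 ± 0.15 in BRAF RG against G, and by -0.05 and -0.10 in R against NEG. In luc RG against luc G they differed by -0.53 ± 0.24 and -0.52 ± 0.19 and did not pass; with the mouse as a random block Ndufv1 did (adjusted p = 0.0479). In complex III the Rieske protein gene Uqcrfs1 differed by 0.05 in both BRAF comparisons, and Uqcrc1 by -0.08 and -0.04. Of the complex IV genes, Cox5a differed by -0.04 and -0.05, Cox5b by -0.12 and 0.01, Cox6c by -0.15 and -0.11 and Cox8a by -0.08 and 0.05. The ubiquitous isoforms Cox6a1 and Cox6b1, whose tissue-restricted counterparts are Cox6a2 and Cox6b2, differed by 0.04 and 0.05 in BRAF RG against G and by 0.03 and -0.15 in R against NEG. In complex V, Atp5c1 differed by -0.08 and -0.09 and Atp5o by -0.17 and 0.14. None of these passed.

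Other mitochondrial and metabolic genes moved in part. Of 17 biogenesis and mtDNA genes, 3 fell in luc RG against luc G, namely Tfam, which packages and transcribes mtDNA (-1.18 ± 0.20; adjusted p = 0.00224), Esrrg (at least 1.58-fold, dim in luc RG; adjusted p = 0.0109) and Tfb1m (-0.80 ± 0.22, above the median on 1 of 2 luc RG arrays). Over all genes 6.78% fell there. In R against NEG, where 7.3% of all genes fell and 5.26% rose, 2 of the 17 fell, Tfb1m (at least 1.28-fold, dim in R; adjusted p = 0.011) and the mtDNA helicase Twnk (-0.70 ± 0.20; adjusted p = 0.0312). In BRAF RG against luc RG, where 7.05% of all genes fell and 9.55% rose, 1 fell, the coactivator Ppargc1a (-1.17 ± 0.22, adjusted p = 0.00358). The Ppargc1a call was lost with estimated array weights (limma, adjusted p = 0.0503) and when only the groups compared were fitted (0.0517). Of 21 TCA cycle and pyruvate genes, the fumarase Fh1 fell in luc RG against luc G (adjusted p = 0.021) and Dlat fell in R against NEG (-0.77 ± 0.24; adjusted p = 0.0443). Pdk4, a kinase that inhibits pyruvate dehydrogenase, was at least 6.03-fold lower in BRAF G, where it was dim, than in luc G (adjusted p = 0.0015). There 0.217% of all genes passed. In BRAF RG it was above the median on 1 of 3 arrays and differed from luc RG by -2.15 ± 0.33 (adjusted p = 0.00103). Of 27 electron carrier and further assembly genes, R against NEG had Coq10b higher (1.10 ± 0.28; adjusted p = 0.018) and Cox10 lower (-1.11 ± 0.34; adjusted p = 0.046). Cox11 was higher in BRAF RG than luc RG (0.76 ± 0.22; adjusted p = 0.0302). Of 13 glycolysis genes, the glucose transporter Slc2a1 was higher in R than NEG (1.43 ± 0.32; adjusted p = 0.00807) and in BRAF RG than luc RG (1.61 ± 0.35; adjusted p = 0.00769). Of these 15 calls, 2 held with each mouse left out in turn, those of Pdk4 and Ppargc1a in BRAF RG against luc RG. Without luc mouse 1 the adjusted p was 0.0711 for Pdk4 in G and 0.116 for Slc2a1 in RG. In BRAF RG against G none of these 4 lists had a member that passed. Estimates there lay above 0 for 0 of 17 biogenesis, 5 of 27 electron carrier and 6 of 21 TCA genes. Their medians were -0.205, -0.158 and -0.093, against -0.021 over all genes, of which 4893 of 10607 lay above 0. Of the glycolysis genes 10 of 13 lay above 0 (median 0.229). The biogenesis median was also negative in NEG against G (-0.175, 4 of 17 above 0).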

How the data were processed

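RNA was measured on 16 Illumina arrays. The submitters' processing notes name GenomeStudio; its version and the normalization are not given in the sources used here. The deposited intensity values run from 55.7 to 40121.2 for 25697 probes, and sorted values of all arrays lie within 1.2, so their distributions are the same. The number of arrays limits the precision. The log2 of the deposited intensities was tested. The non-normalized table was left out since its 32 columns match no array's labels, so the planned detection filter was replaced by the array median. A probe was kept if above it on at least 2 arrays (16005 probes, 10607 named genes). Platform symbols were checked by Entrez ID against RefSeq, and the brightest probe stood for a gene.

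The limma 3.58.1 fit (R 4.3.3) took all 6 groups, with no mouse block, 10 residual and 5.26 prior degrees of freedom, and Benjamini-Hochberg adjustment; its code was tested on simulated data. A gene is dim in a group if none of its arrays exceeds its median, and its change is then given as "at least N-fold", against that median. The sample titles number the samples of a line as replicates, and same-numbered samples were taken as 1 mouse. The deviations of same-numbered BRAF samples correlated above 0.1 in 18 of 18 pairs. In the luc line 0 of 2 such pairs did (correlation 0.0457), so the pairing of the luc gates rests on the numbering. No chip or date was given, so no batch could be tested. Members were named if called, if core subunits, paralogs or assembly factors on a written list, or if in the pathway lists. The members and lists were chosen with earlier results of these data known. Alternatives covered the block, weights, filter, probe choice, centring, background correction, groups fitted and each mouse left out.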

Additional observations from a re-analysis of the deposited data

How the results depend on the processing

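Few members passed, and the counts moved with the settings. The median member change stayed within 0.099 of its main value, the pooled SD of the array medians, in 117 of 118 alternatives. The exception was R against NEG with estimated array weights, at 0.017. That limit of 0.099 is about as large as the medians themselves (-0.111 in BRAF RG against G). A mouse block, fitting only the groups compared or leaving out a mouse of the other line also cannot change most of these estimates. The 117 therefore show little about stability. The share of all genes called under each alternative is not given here, so the counts below describe the settings, not the members. They include Cox6a2 and Cox6b2 where these passed. With the mouse as a fixed replicate block, the members called numbered 1 in BRAF RG against G (Cox7a1) and 4 in luc RG against G. With a random replicate block the luc count was 5. Array weights gave 1 (Cox7a1) in BRAF RG against G, 2 in R against NEG, 4 in BRAF G against luc G and 2 in BRAF RG against luc RG. Fitting only the groups compared gave 1 in luc RG against G, 1 in R against NEG, 1 in BRAF G against luc G and 2 in BRAF RG against luc RG. Without the dim-probe filter the luc count was 5. Leaving out each mouse in turn gave 0 to 2 in luc RG against G, 0 to 2 in R against NEG, 0 to 1 in NEG against G and 2 to 3 in BRAF RG against luc RG. Without the R array of mouse 1, an alternative added after seeing the data, R against NEG had 1 (Cox7a1). The difference of the BRAF line's R-NEG and RG-G changes for Cox7a1 ran from -0.022 (without BRAF mouse 1, a turned sign) to 0.734 as mice were left out. With 1 luc mouse left out, the lone array is assumed to vary like the other groups. The cause of these shifts was not tested. Background included in the intensities makes changes of dim genes such as Cox6a2 and Cox6b2 smaller.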
